A study of Danio rerio with 4 samples.

Results

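Epithelial cells are held together by adhesion proteins at their surface and stiffened from within by keratin filaments. E-cadherin, the product of cdh1, joins neighbouring cells at adherens junctions, and Epcam is a surface glycoprotein that modulates that adhesion. Keratins are intermediate filament proteins that assemble as pairs of a type I and a type II chain, with keratins 8 and 18 as the usual pair of simple epithelia and keratins 4 and 5 known from layered epithelia and skin. In fish, keratins 8 and 18 are also known from astrocytes of the optic nerve, so keratin transcripts in neural tissue need not come from skin.

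The genes described here are 7 rows, epcam, cdh1, krt4, krt5, krt8, krt18a.1 and krt97, found by their symbols in a table of 32520 zebrafish genes. They were chosen by their function and by the counts in these same libraries, where epcam had drawn notice as absent under exposure, so the levels below are a description with no test attached. Brains of wild-type adult zebrafish (Danio rerio) had been sequenced in 4 libraries, 1 per group. The control group received dimethyl sulfoxide (DMSO) at 0.1%, and the other groups received butylparaben, a preservative ester, at 0.01, 0.1 or 1.0 mg/L, named below the low, middle and high dose. The study's title names chronic exposure, photosensitivity and memory. The treatment labels name DMSO for the control only, and the number of fish in a library, their sex and their exact age are not stated in the labels. With 1 library per group no value has a replicate, each difference is one between libraries, and a dose cannot be told apart from the fish that received it.

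Library totals ran from 9750590 to 11099317 counts. A floor of 3 counts was set for a count of 0. That is 0.267 to 0.318 CPM (counts scaled to a common library total) depending on the library. The exact 95% bound of a 0 count is somewhat higher, at 0.391 CPM in the low-dose library. All 13 genes of a short list of brain markers were detected in every library, though not at equal levels. The myelin gene mbpa was at 9044 (control), 14707 (low), 11458 (middle) and 10364 CPM (high). The gene slc1a2b was at 804, 545, 596 and 635 CPM in the same order. Mitochondrially encoded genes held 29.3% (control), 32.3% (low), 26.3% (middle) and 28.2% (high) of counts. Calls followed a rule of size: the log2 ratio to the control, on the log2(CPM + 0.5) scale, had to reach 1 in either direction, and the exact 95% interval of the count ratio had to leave out 1. Those intervals (Clopper-Pearson), and the Poisson intervals of single levels, cover counting error and not the variation between fish. The rule was applied to 16522 genes, those averaging 1 CPM or more. All of the 7 genes except cdh1 passed that filter. Of these, epcam passed through the control library alone and krt97 through the low-dose library alone, the mean of their other 3 libraries being 0.101 and 0.544 CPM, so a difference from those libraries was built into their being tested.

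At the low dose 1 of the 6 genes that passed was called higher and 1 lower, where 2.15% of all tested genes were higher and 2.41% lower. The middle dose had 0 higher and 1 lower, beside 2.43% and 2.95% of tested genes. The high dose had 0 higher and 2 lower, beside 2.68% and 2.74% of tested genes. The gene called lower each time was epcam, joined at the high dose by krt5, and the gene called higher at the low dose was krt97. Over all 7 genes the median log2 ratio was 0.29 (low), -0.20 (middle) and -0.80 (high), while the median of all tested genes was -0.01, 0.00 and 0.00. The high-dose median is the value of krt97, whose interval holds 1, and it ran from -1.15 to -0.30 with other pseudocounts. These 3 comparisons share the control library.

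**Figure D1:**
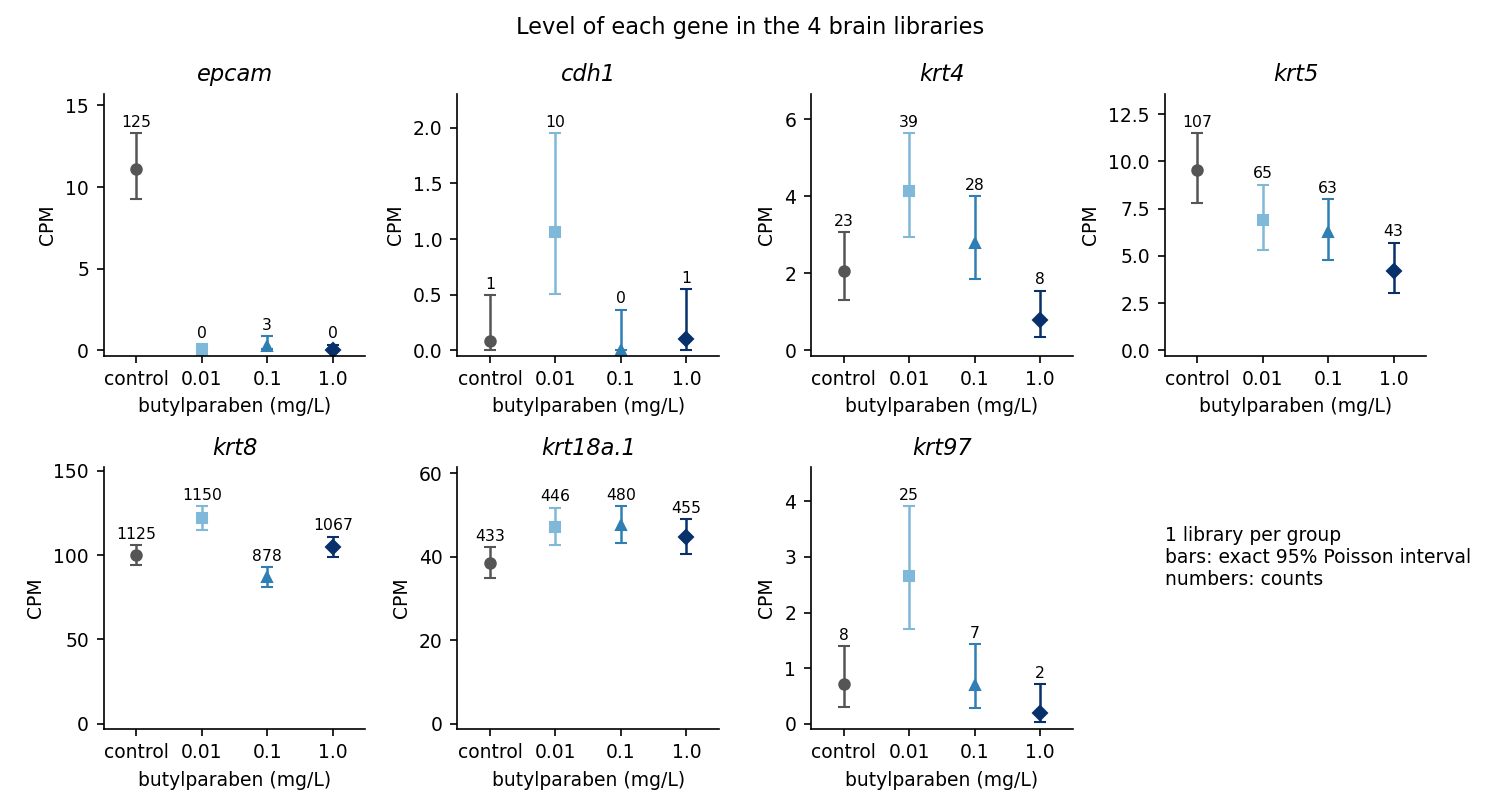
Level of each of the 7 genes in CPM (vertical axes, each from 0 and with its own scale) in the control and at the 3 doses, 1 library each. Points are the libraries, bars the exact 95% Poisson interval, and the numbers are counts. The control alone holds epcam above 3 counts, the low dose is highest for krt97, krt4 and cdh1, and krt8 and krt18a.1 keep within a narrow band.

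The gene epcam (ENSDARG00000040534, chromosome 13, 8840772 to 8843363, plus strand, on GRCz11) codes for the epithelial cell adhesion molecule. Its counts were 125 (control), 0 (low), 3 (middle) and 0 (high), which for the control is 11.1 CPM with an interval of 9.27 to 13.3. The transcript was thus missing from the library of the lowest dose and from that of the highest, and all 3 exposed libraries lay far below the control. Against the set floor of 3 counts per library, epcam was 35.1-fold lower at the low dose and 37.7-fold lower at the high dose. The exact intervals, which allow for counting error in both libraries, give the wider bounds and began at 28.1-fold and 30.2-fold lower. The middle dose was 37.4-fold lower, with a counting interval of 12.5 to 184. Counting could not tell the 3 exposed libraries apart from each other. Per length, the authors' TPM (abundance scaled for transcript length and library) of epcam was 10.83 in the control and 0.34 at the middle dose, with the others listed at 0. In bulk tissue, fewer cells that hold a transcript and less transcript per cell cannot be told apart.

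Within 20000 bases of epcam lay plekhh2, with no such gap at its few counts of 8 (control), 11 (low), 5 (middle) and 13 (high). The neighbour on the other side, si:ch73-105b23.1, had 0 counts in every library and so could show none. Neither overlaps epcam.

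Profiles most like that of epcam were sought among 13648 tested genes with an informative symbol, by the root mean square distance of log2(CPM + 0.5) values, each gene centred on its mean over the 4 libraries. The 6 nearest were zp3f.1, zpax4, zpax1, gtf3ab, zpcx and org. Of these, zp3f.1, zpax4, zpax1 and zpcx carry symbols of the egg coat, or zona pellucida, family. In the table's descriptions org is an oogenesis-related gene and gtf3ab a general transcription factor IIIA, a protein best known from Xenopus oocytes for its part in 5S ribosomal RNA synthesis. The counts of zp3f.1 were 285 (control), 5 (low), 10 (middle) and 4 (high), at a distance of 0.123 log2 units. Those of gtf3ab were 107, 1, 2 and 0 in the same order. The distance rests on 4 libraries, and the step between the control and the rest makes up most of each of these profiles. Like epcam, all 6 genes passed the filter through the control library alone, so that step was built into their being compared.

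Most markers listed for another tissue moved with epcam. Of a list of 24 ovary and oocyte symbols 23 were found, in 24 rows, and 17 rows passed the filter. All 17 passed through the control library alone, which built a lower mean of the other libraries into their being tested. Their being called lower at each dose thus has no weight as support. Levels over all 24 rows do not depend on the filter. The list itself, though, was chosen with earlier results of these data known, so the size of its fall is a description only. The summed level of the list was 612 CPM (control), 7.41 CPM (low), 5.65 CPM (middle) and 4.72 CPM (high), or 6868 counts against 70, 57 and 48. Rows at 0 counts numbered 0 in the control, then 5, 8 and 10. The germ cell gene ddx4, which encodes Vasa, had 13 control counts and 0 in every exposed library, and the oocyte gene zar1 had 136 control counts against 2, 1 and 0. Not every row fell: the germ cell gene nanos3 had counts of 5 (control), 1 (low), 5 (middle) and 11 (high). Counts of sycp3 were 8, 0, 0 and 5 in the same order, and those of dazl were 14, 5, 1 and 1. All of these except zar1 lay under the filter. As background, zebrafish epcam is supplied by the mother to the egg. The part of ovary or egg transcripts in the epcam difference was not tested.

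**Figure D2:**
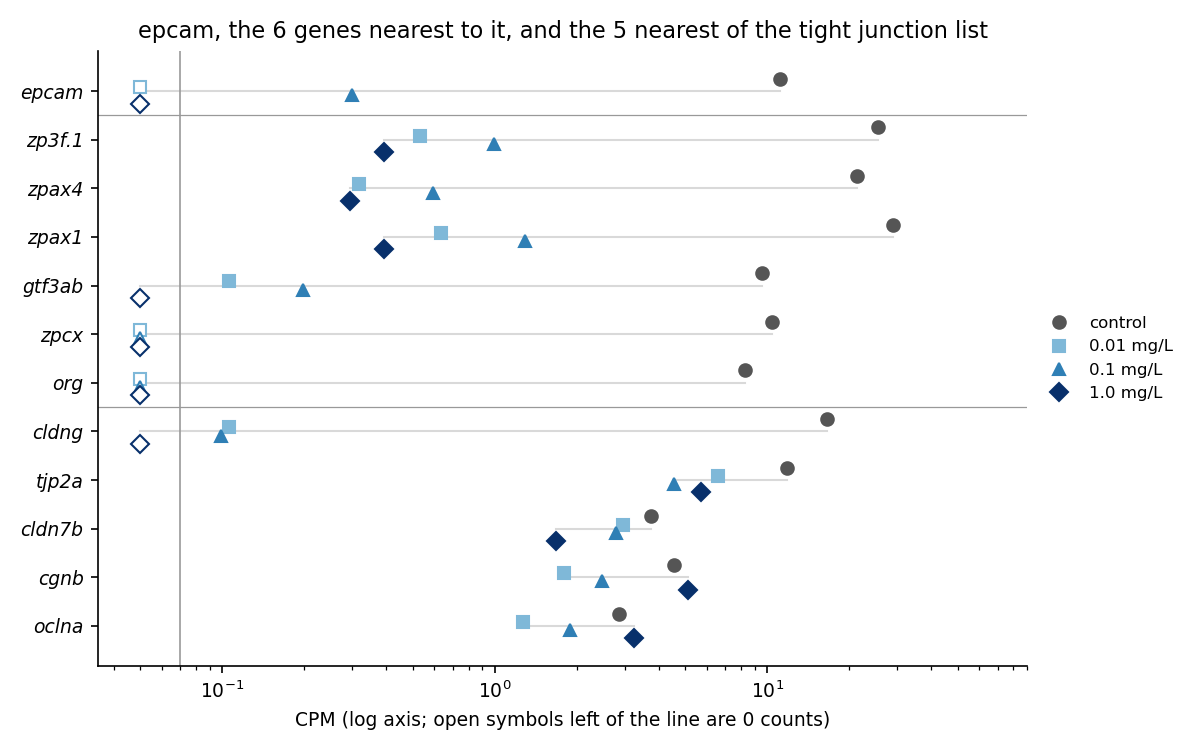
CPM (horizontal log axis) of epcam, of the 6 genes with the nearest profile, and of the 5 nearest members of the tight junction list, with 1 symbol per library; open symbols left of the vertical line are 0 counts. The nearest genes and cldng share the wide gap between the control and the exposed libraries, and the other 4 tight junction genes have no gap of that size.

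Partners of the adhesion genes were read from lists of junction and epithelial genes. Of all tested genes 4.56% (low), 5.37% (middle) and 5.42% (high) were called, higher or lower. In a list of so few genes, a single call or none is near those shares. Of 28 epithelial tight junction symbols 27 were found and 14 passed the filter, of which 0 were called higher at any dose and 2 (low), 2 (middle) and 1 (high) lower. The claudin gene cldng was called each time, with counts of 185 (control), 1 (low), 1 (middle) and 0 (high). At the high dose cldng was 55.9-fold lower against the floor, with a ratio of up to 0.0222 by the exact interval. It passed the filter through the control library alone. It ranked 12 in distance to epcam, whereas the other 13 tested tight junction genes ranked between 179 and 11824. Another claudin gene, cldnd, was placed in the ovary and oocyte list and ranked 20. Its counts were 239 (control), 2 (low), 1 (middle) and 3 (high). Of the tight junction genes under the filter, f11r.1 had counts of 16, 4, 1 and 3 in the same order, and cldn1 had 3, 7, 6 and 17. The remaining calls were in cgnb, which codes for a cingulin and was 2.52-fold lower at the low dose (interval of the ratio 0.214 to 0.697), and in the scaffold gene tjp2a, 2.58-fold lower at the middle dose (0.271 to 0.547). The epithelial claudin gene cldn7b, not called, had counts of 42 (control), 28 (low), 28 (middle) and 17 (high).

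Among catenins and other adherens junction partners of E-cadherin, 15 of 17 symbols were found and 14 passed the filter. Of these 0 were called at any dose, which for so few genes is near the shares of all tested genes. Their median log2 ratios were -0.04 (low), -0.14 (middle) and -0.01 (high), and their summed level lay between 1101 and 1304 CPM. N-cadherin (cdh2), the classical cadherin of neural tissue, had counts of 1953 (control), 2246 (low), 1540 (middle) and 1729 (high). Of the desmosome and plakin list 11 genes passed, and 0 were called at the low or middle dose. At the high dose the plakophilin gene pkp3b was called higher, at 21.1 CPM against 10.2 CPM. For the desmosome and plakin list the median and the summed level went the other way at that dose. Its median log2 ratios were 0.15 (low), 0.07 (middle) and -0.30 (high). Its summed level was 151 CPM (control), 164 CPM (low), 151 CPM (middle) and 135 CPM (high). Much of the lower sum at the high dose was in pleca, at 60.1 CPM against 77.5 CPM in the control, and plecb, at 11.5 CPM against 17.7 CPM. Some genes besides pkp3b were higher at that dose, such as evplb at 9.15 CPM against 6.15 CPM.

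E-cadherin itself was close to the limit of detection. The gene cdh1 (ENSDARG00000102750, chromosome 7, 53059299 to 53117237, minus strand) had counts of 1 (control), 10 (low), 0 (middle) and 1 (high). The low-dose library stood above the rest, which counting did not separate from each other. Its ratio to the control was 11.9, with an interval from 1.69 to 516, and the authors' TPM of cdh1 did not exceed 0.30. Without the filter on low values cdh1 would have been called higher at the low dose, beside 2.33% of the 24893 genes with any count. An rRNA row within the cdh1 gene, on the same strand, had 0 counts in every library.

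The keratins of simple epithelia, krt8 and krt18a.1, were the most abundant of the 7 genes in CPM and, per length, in TPM. The type II gene krt8 (ENSDARG00000058358, chromosome 23, 10249626 to 10254288, minus strand) had counts of 1125 (control), 1150 (low), 878 (middle) and 1067 (high), or 100.2, 122, 87.1 and 105 CPM. The low dose was highest and the middle dose lowest, a 1.4-fold span with a counting interval of 1.28 to 1.53. The control and the high dose, next to each other in that order, could not be told apart by counting (ratio interval 0.962 to 1.14). In TPM krt8 was 56.6 (control), 60.45 (low), 51.55 (middle) and 62.69 (high), which puts the high dose first. At no dose did krt8 differ 2-fold from the control.

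The type I partner krt18a.1 (ENSDARG00000018404, chromosome 23, 10347851 to 10351754, plus strand) lies on the same chromosome. It had counts of 433 (control), 446 (low), 480 (middle) and 455 (high), or 38.6, 47.2, 47.6 and 44.7 CPM. The control was lowest, and the exposed libraries could not be told apart from each other by counting. The ratio to the control was 1.22 at the low dose (interval 1.07 to 1.4), 1.23 at the middle dose (1.08 to 1.41) and 1.16 at the high dose (1.01 to 1.33), with no call. In TPM krt18a.1 was 31.95 (control), 41.43 (low), 41.01 (middle) and 48.2 (high), again with the control lowest. The tandem copy krt18a.2, next to it on the same strand, had 0 counts in every library, and reads that both copies share could be split between them by the estimates.

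The balance of the filament partners differed between libraries. For each krt18a.1 count the control held 2.6 krt8 counts (exact interval 2.32 to 2.91) and the low dose 2.58 (2.31 to 2.88). The middle dose held 1.83 (1.63 to 2.05) and the high dose 2.35 (2.1 to 2.62). On the count scale the middle dose stood below the rest, with an interval that met none of the others. In the authors' TPM the ratio of krt8 to krt18a.1 was 1.77 (control), 1.46 (low), 1.26 (middle) and 1.3 (high), so that the control stood highest and the high dose came close to the middle dose.

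The scales differed in the length that the estimates assign to krt18a.1, which has 3 annotated transcripts. The length implied by its count and RPKM (the library-scaled reads per kilobase) was 1354 bases (control), 1126 (low), 1369 (middle) and 1114 (high). The control and the middle dose shared the longer value, and the low and high dose the shorter one. The highest was 1.23 times the lowest, against 1.01 for krt8 and krt5, which have 3 annotated transcripts as well. Among 3897 genes with several transcripts and at least 200 counts in every library, 6.39% spanned 1.2 times or more, and among 1754 such genes with 1 transcript 0.114% did. The table holds no values per transcript, and which krt18a.1 transcripts were present was not tested.

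**Figure D3:**
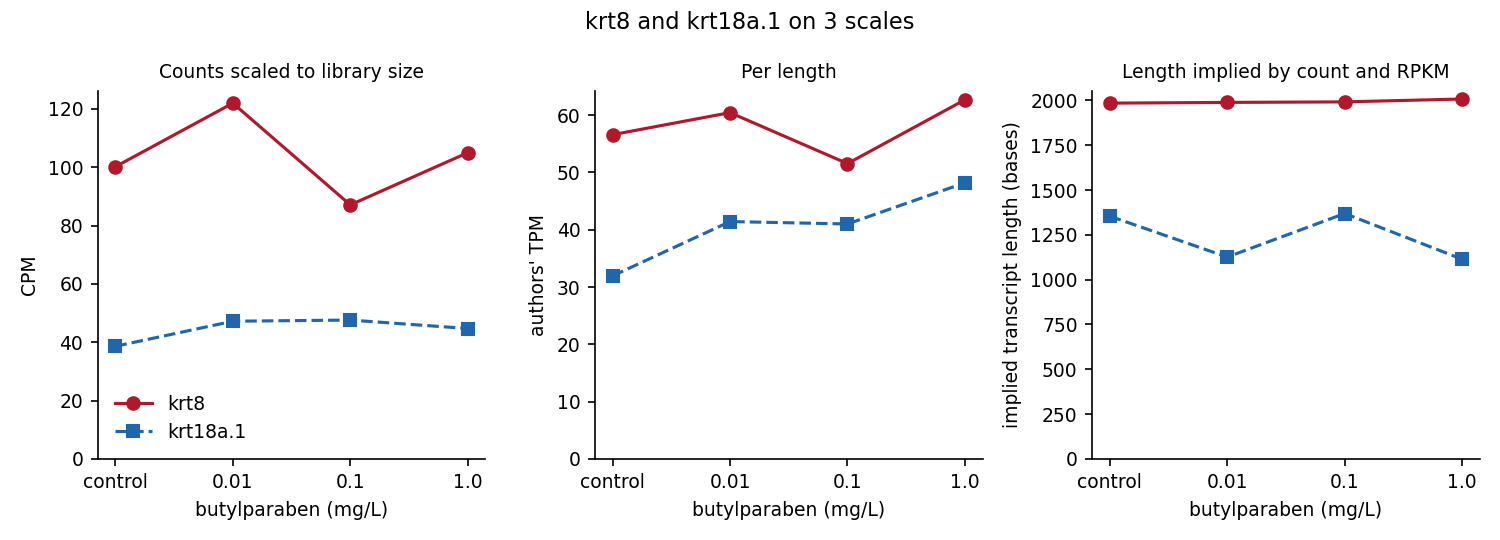
Levels of krt8 and krt18a.1 in CPM (left), in the authors' TPM (middle) and the transcript length in bases implied by count and RPKM (right), each vertical axis from 0, for the control and the 3 doses. Points are single libraries and lines only join them. The implied length of krt8 is level at 1985 to 2008 bases, while that of krt18a.1 alternates between longer (1354 and 1369) and shorter (1126 and 1114) values.

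Keratins known from layered epithelia and skin were far less abundant and had differing profiles. The type II gene krt5 (ENSDARG00000058371, chromosome 23, 10173196 to 10177458, minus strand) had counts of 107 (control), 65 (low), 63 (middle) and 43 (high), or 9.53, 6.88, 6.25 and 4.23 CPM. The control was highest and the high dose lowest, while the steps from low to middle and from middle to high each lay within counting error. Between the low and the high dose the ratio was 1.63-fold, with an interval of 1.09 to 2.45. Against the control krt5 was 1.39-fold lower at the low dose (1.01 to 1.92), 1.53-fold lower at the middle dose (1.11 to 2.12) and 2.25-fold lower at the high dose (1.57 to 3.29). The last is a log2 ratio of -1.08, just past the size rule. That call was lost with a pseudocount of 2 CPM and on the authors' TPM, where krt5 was 4.92 (control), 3.1 (low), 3.36 (middle) and 2.32 (high).

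The promoter of krt4 (ENSDARG00000017624, chromosome 6, 39308498 to 39313027, minus strand) is widely used to mark zebrafish skin. The gene had counts of 23 (control), 39 (low), 28 (middle) and 8 (high), or 2.05, 4.13, 2.78 and 0.787 CPM. The high-dose library was the lowest, below the control by 2.6-fold (interval 1.12 to 6.73) and below the low dose by 5.25-fold (2.42 to 13.0). Between the control and the middle dose, and between the middle and the low dose, counting gave no separation, while the low dose was 2.02-fold above the control (1.17 to 3.53). The log2 ratios to the control were 0.86 (low) and -0.99 (high), both short of the size rule. The second was called with a pseudocount of 0.1 CPM or with mitochondrially encoded genes left out.

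The keratin gene krt97 (ENSDARG00000000212, chromosome 22, 11756040 to 11759106, plus strand) had counts of 8 (control), 25 (low), 7 (middle) and 2 (high), or 0.713, 2.65, 0.694 and 0.197 CPM. The low-dose library was above each of the others, which counting did not separate. Its ratio to the control was 3.71 (interval 1.62 to 9.53), and the call was lost with a pseudocount of 2 CPM. Its ratio to the high dose was 13.5, with an interval of 3.36 to 117. The neighbouring keratin gene krt96 had counts of 3 (control), 4 (low), 1 (middle) and 0 (high).

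**Figure D4:**
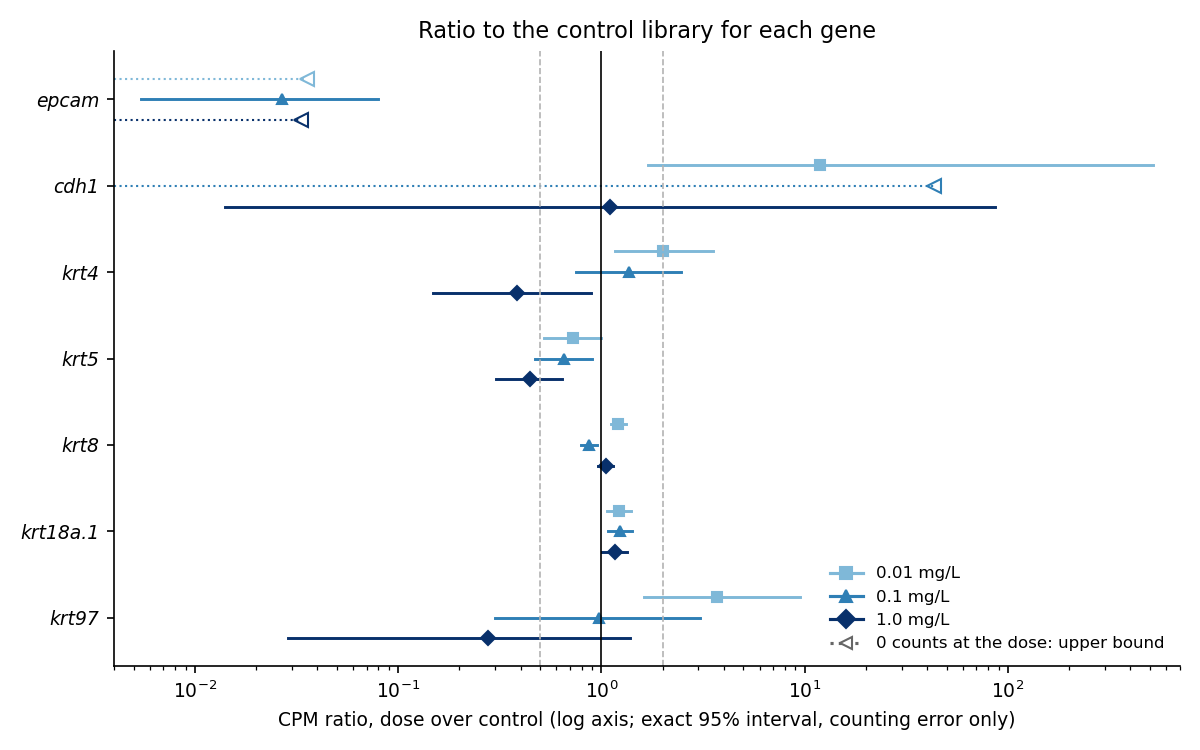
CPM at each dose divided by CPM in the control (horizontal log axis) for each of the 7 genes; lines are exact 95% intervals that cover counting error, dashed lines mark 2-fold differences, and open triangles mark the upper bound where a dose had 0 counts. The points or bounds of epcam are 0.0356, 0.0267 and 0.0331, and the points of krt8 and krt18a.1 lie between 0.869 and 1.23.

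In profile, krt5 was most like pkdccb, mef2cb and anos1a, with distances from 0.027 to 0.049 log2 units over the 4 libraries. The transcription factor gene mef2cb, for example, had counts of 517 (control), 317 (low), 291 (middle) and 213 (high). Nearest to krt97 were the homeobox gene vent (22, 52, 18 and 8 counts in the same order), the titin gene ttn.1 (169, 325, 177 and 108 counts) and gstt2 (41, 64, 38 and 16 counts). The last was also among the 3 nearest to krt4, with sync and limk1b. Nearest to krt8 were adpgk, tbl1xr1a and fbxo28, and nearest to krt18a.1 were sept10, pfkfb2b and MPRIP, at distances of 0.010 to 0.019 log2 units.

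The wider keratin family gives the scale of these levels. The table holds 23 keratin rows, 5 of them among the 7 genes. Summed over the family, the authors' TPM was 184 (control), 201 (low), 181 (middle) and 198 (high), and krt8, krt18a.1 and krt94 together made up 72.7% to 76.4% of it. Of the 18 other keratins 5 passed the filter, and 0 of these were called at any dose, near the shares of all tested genes for so few. Their median log2 ratios were 0.37 (low), -0.09 (middle) and -0.08 (high). The most abundant, krt94, had counts of 757 (control), 744 (low), 640 (middle) and 580 (high). The type I keratin gene krt15 had counts of 159, 183, 69 and 136 in the same order, and its middle-dose ratio (interval 0.359 to 0.645) fell just short of the size rule. Counts of krt222 were 394, 289, 372 and 329, those of krt91 were 122, 134, 91 and 112, and those of krt18b were 61, 73, 61 and 60. None of these 3 reached a 2-fold difference from the control.

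Of the 13 keratins under the filter 3 had 0 counts in every library, and 2 others are named here after their values were seen. The gene krt92 had counts of 2 (control), 28 (low), 0 (middle) and 0 (high), with an interval of 4.2 to 144 for its low-dose ratio. The gene krt1-c5 had counts of 2 (control), 7 (low), 10 (middle) and 5 (high), with an interval of 1.19 to 52.3 for its middle-dose ratio. In CPM the low-dose library held the highest level of cdh1, krt4, krt97, krt92, krt8, krt15, krt91, krt94 and krt18b. The control held that of krt5, and the middle dose that of krt18a.1, krt222 and krt1-c5. The share of all tested genes highest at the low dose was not computed, so this is a description of levels only. Some of these differences are small, as for krt94 at 78.8 CPM against 67.4 CPM in the control. In the authors' TPM the low dose was not the highest for krt8 (62.69 at the high dose) or krt18b (4.71 against 4.89 in the control). With library totals as the scale, ratios at the low dose come out smaller, with the median of all tested genes at -0.12.

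**Figure D5:**
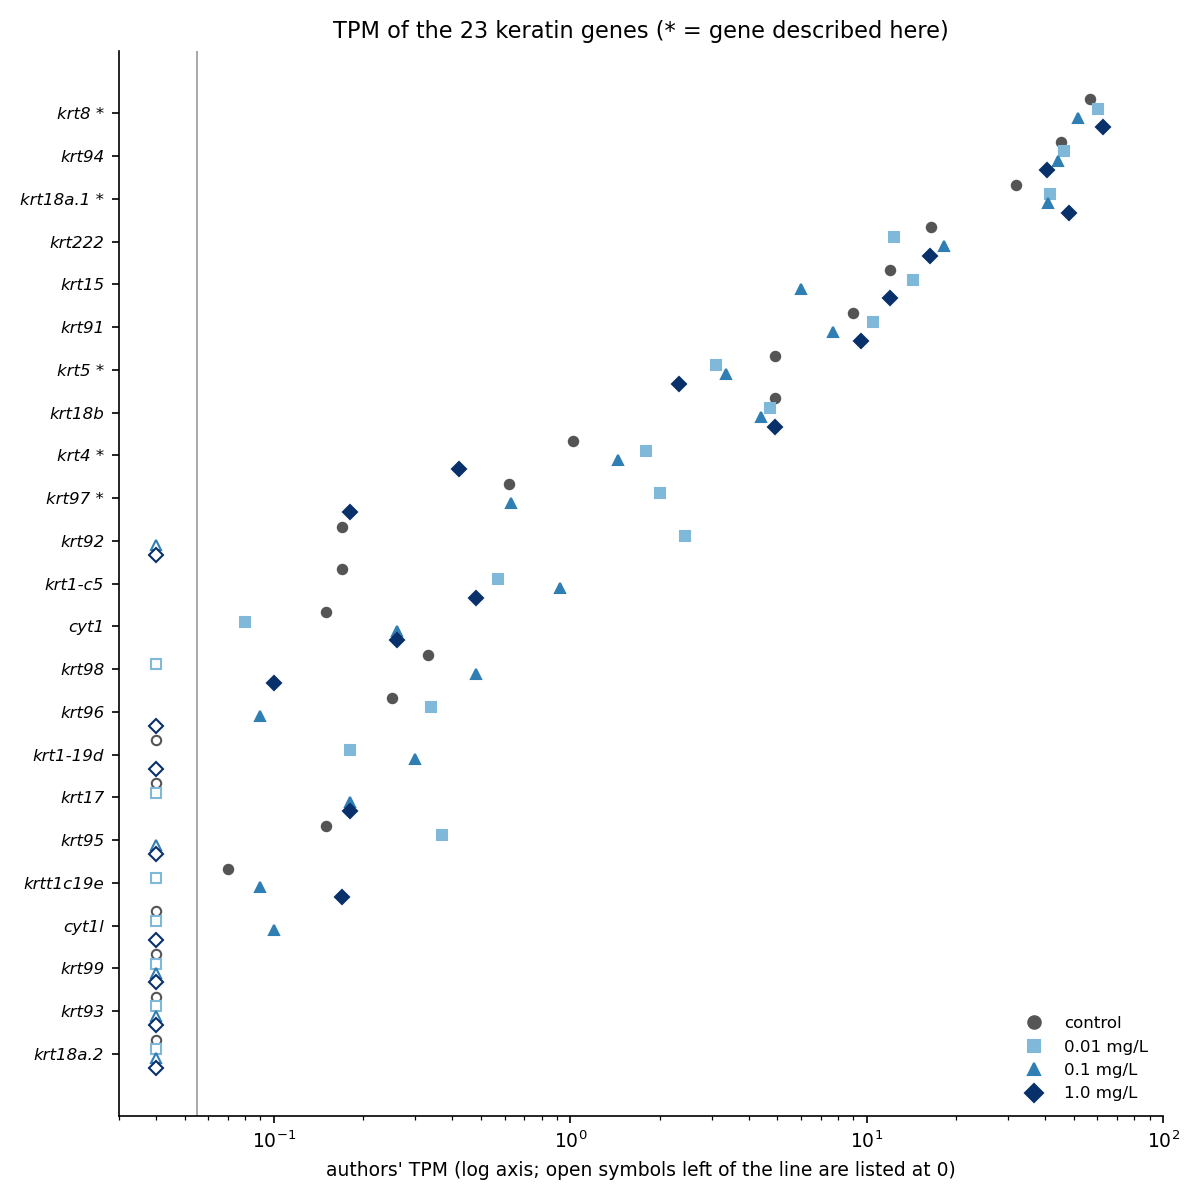
Authors' TPM (horizontal log axis) of all 23 keratin rows, ordered by mean CPM, with 1 symbol per library; open symbols left of the vertical line are listed at 0, and an asterisk marks the genes described here. Levels of krt8, krt94 and krt18a.1 exceed 30 TPM in every library, and krt92 is listed at 0 at the middle and high dose.

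Markers of skin were read beside these keratins. All 22 symbols of the epidermis list were found, 10 passed the filter, and 0 were called at the low or middle dose. For so few genes that is near the shares of all tested genes. The summed level was 81.9 CPM (control), 97.3 CPM (low), 81.5 CPM (middle) and 85.5 CPM (high), and 4, 3, 6 and 6 of the 22 were at 0 counts. Median log2 ratios were 0.30 (low), 0.03 (middle) and 0.13 (high). At the high dose the transglutaminase gene tgm1l1 was called higher, at 2.66 CPM against 0.891 CPM. Of the 10 that passed, icn had the most counts in every library, with 278 (control), 376 (low), 315 (middle) and 279 (high). Much of the higher sum at the low dose was icn, at 39.8 CPM against 24.8 CPM in the control. The hemidesmosome integrin gene itgb4 had 27, 30, 33 and 20 counts in the same order. Other members fell at the low dose: cfl1l had 34, 12, 15 and 17 counts, and col7a1 had 118, 74, 75 and 97. The hemidesmosome collagen gene col17a1a had 0 counts in every library, and its paralog col17a1b had 0, 1, 0 and 4. The part of skin in the levels of krt97, krt4 and cdh1 was not tested.

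Regulators of epithelial identity, and the proteases that cut Epcam, were mostly near the floor. Of 25 symbols 24 were found and 6 passed the filter, with summed levels of 127 to 189 CPM, of which prom1a alone made up 109 to 166 CPM. The matriptase gene st14a, whose mammalian product cleaves EPCAM, had counts of 62 (control), 30 (low), 51 (middle) and 42 (high), with no call. The grainyhead-like gene grhl1, of a family of epithelial transcription factors, was called higher at the high dose, at 2.85 CPM against 0.624 CPM (ratio interval 1.96 to 12.4). It passed the filter through the high-dose library alone.

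Lists of other tissues that a dissected brain can carry were read against the shares of tested genes called, given above. The pituitary list had 4 tested genes and 0 calls at any dose, with summed levels of 44.4 to 50.2 CPM. The olfactory list had 5 tested genes, and ompa was called at the middle dose (2.53-fold higher, 1.2 to 5.7). The choroid plexus list had 8 tested genes, and the cilia regulator foxj1a was called at the low dose (4.07-fold lower, ratio interval 0.139 to 0.412). Its summed level was 149 CPM (control), 109.9 CPM (low), 116 CPM (middle) and 104 CPM (high). Median log2 ratios of its tested genes were -0.37 (low), -0.34 (middle) and -0.45 (high). Not every gene of it was lower: clic6 had counts of 49 (control), 69 (low), 62 (middle) and 70 (high). The listed gene ttr had 0 counts in every library. Of 12 tested meninges and fibroblast genes, col12a1b was called higher at each dose, at 12.6 CPM against 3.21 CPM at the middle dose, and col5a1 lower at the high dose. Of 11 tested endothelial genes, cldn5b was called higher at each dose, with counts of 5 (control), 20 (low), 21 (middle) and 36 (high). At the high dose plvapb was also called higher and slc2a1a lower, which makes 2 higher and 1 lower of 11, beside 2.68% and 2.74% of all tested genes.

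In the authors' deposited table, a changed gene is one with p under 0.05 and a fold change of 2 or more in either direction. The authors' deposited table marked epcam, cdh1 and krt97 at the low dose, where 3.96% of its 32520 rows met those limits. It marked epcam alone of the 7 at the middle dose, where 4.28% of rows in the authors' deposited table met them. At the high dose it marked epcam and krt5, where 4.29% of rows met them. Those rows include genes with no counts, as 24893 genes had any count. The log2 fold change of epcam in the authors' deposited table was -6.72 (low), -5.23 (middle) and -6.82 (high). In the authors' deposited table cdh1 had a low-dose log2 fold change of 3.57, from 10 counts against 1, while the filter on low values kept it out of the calls above. The authors' deposited table left krt4 unmarked at 1.01 (low) and -1.38 (high), and krt97 unmarked at -1.86 (high).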

How the data were processed

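Total RNA of brain was made into stranded mRNA libraries for paired reads of 151 bp, per the labels' protocols. The submitters' processing notes list RSEM 1.3.1, STAR 2.7.1a, cutadapt 2.8 and the build GRCz11. The deposited table holds, per the file headers, a read count, RPKM and TPM for each library and 32520 genes. The deposited counts are whole, yet 141 zeros have an RPKM above 0, so they were treated as RSEM's expected counts made whole. Close keratin paralogs can share reads, and their split is uncertain. For each dose the deposited table also has a log2 fold change with a p-value and q-value, whose test is unknown here.

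CPM was scaled by TMM over all genes with edgeR 4.0.16 (R 4.3.3), the factors being 1.01 in the control, then 0.931, 1.02 and 1.04 by dose. No count model was fitted, since each group has 1 library. Ratios, intervals and plots came from Python 3.11.15 with scipy 1.17.1, pandas 2.3.3, numpy 2.4.6 and matplotlib 3.10.9. By dose, library totals were 11099317 (control), 10140963, 9907714 and 9750590 counts. Alternatives were DESeq2 1.42.0 size factors, library totals, other filters and pseudocounts, leaving out mitochondrially encoded genes, and TPM.

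The 7 genes and the 12 lists were chosen with earlier results of these data known. Named beside them are keratins averaging 5 CPM or more, list members that were called, and the nearest profiles. Other genes are examples named after their values were seen.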

Additional observations from a re-analysis of the deposited data

How the results depend on the processing

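Of 21 ratios of the 7 genes to the control, 20 kept 1 sign under every setting run, the exception being krt97 at the middle dose (-0.02, and 0.01 in TPM). The settings rescale the same counts, so a kept sign says little about how firm a ratio is. The counting interval left out 1 for 7 genes at the low dose, 4 at the middle and 4 at the high. The share of all tested genes for which it did so was not computed, so these numbers have no background. For abundant genes the interval leaves out 1 at small differences, as for krt8 at a ratio of 1.21 at the low dose. In the authors' deposited table the middle-dose log2 fold change of cdh1 was 0.16, against -0.24 here. With a mean of at least 5 CPM required, calls among the genes came to 0 (low), 0 (middle) and 1 (high, krt5). The genes epcam, cdh1, krt4 and krt97 fall under that filter. Of all genes past it 1.71% (low), 2.18% (middle) and 2.3% (high) were called. The calls reported are 2, 1 and 2. With a pseudocount of 2 CPM the calls came to 1 at the low dose and 1 at the high dose, epcam both times. Of all tested genes 1.82% (low) and 2.18% (high) were called with that pseudocount. The median log2 ratio of the 7 genes at the middle dose came to -0.06 with 2 CPM. The median at the high dose came to -0.30 with 2 CPM and to -1.15 with 0.1 CPM. In TPM 1 gene, epcam, was called at the high dose, beside 4.81% of all tested genes. The size of the epcam ratio depends on the pseudocount: at the low and high dose the log2 ratio was -4.54 with the 0.5 CPM used, -6.81 with 0.1 CPM and -2.72 with 2 CPM. In TPM the log2 ratio of krt18a.1 at the high dose was 0.59, and that of krt8 at the low dose was 0.09. The median of all tested genes at the low dose was -0.12 with library totals and -0.19 in TPM. Scaling without the ovary and oocyte list, added after seeing the data, changed no call among the 7 genes. No paired analysis was possible because each group has 1 library. Each comparison has 1 library on either side. Leaving the other doses out of the filter's mean in turn, added after seeing the data, changed no call among the 7 genes. It could not have removed the calls of epcam or krt97, since the mean kept the control and the dose compared. With the low dose left out, 5 of the 7 genes passed in place of 6. Depth limits cdh1, krt97 and krt4, whose counts run from 0 to 39.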

Other observations

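The transcription factor gene tp63, known from basal skin cells and in mammals also from oocytes, was named after its values were seen. Its counts were 15 (control), 7 (low), 5 (middle) and 1 (high dose). Its mean level was under the filter, and the high-dose ratio to the control had a counting interval of 0.00175 to 0.478. Its intervals at the low dose (0.191 to 1.45) and the middle dose (0.106 to 1.07) hold 1. By these counts the libraries stand in the same order as for krt5, an order that counting does not establish for either gene. Other genes of the tp63 list differed among themselves. The gene prom2 had counts of 13 (control), 8 (low), 7 (middle) and 2 (high). Counts of grhl1 were 7, 10, 9 and 29 in the same order, and those of grhl2a were 64, 92, 82 and 62.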
